A study of Mus musculus with 34 samples.

Results

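The genes described here are Cebpa, Cebpb, Cebpd and Ddit3, which encode C/EBP alpha, C/EBP beta, C/EBP delta and CHOP of the CCAAT/enhancer-binding protein (C/EBP) family of transcription factors. They were found by gene symbol in the platform's probe annotation, which gave 4 probe sets, 1 for each gene, among the 12422 probe sets of the array that are not controls and the 8251 genes that these name by a single symbol. A probe set was tested when its signal reached 200 on at least 2 of the 32 arrays that have a group, and 8224 probe sets did so, all 4 C/EBP probe sets among them. Cebpa, Cebpb and Cebpd reached that signal on all 32 arrays, while Ddit3 reached it on 20 and lay under it on 12.

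C/EBP proteins share a basic region that contacts DNA and a leucine zipper through which they pair with one another or with other basic leucine zipper (bZIP) factors. In the myeloid lineage C/EBP alpha is known for its part in commitment and differentiation, whereas C/EBP beta and C/EBP delta are known as factors of the inflammatory and acute-phase response, and Cebpd is a known target of STAT3, the factor that IL-10 and IL-6 receptors activate. CHOP pairs with other C/EBP proteins, has an atypical basic region, and is induced in the unfolded protein and integrated stress responses. The arrays measured messenger RNA, so the translated isoforms of C/EBP beta (LAP and LIP) and of C/EBP alpha, which arise from single messages, were not resolved.

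Macrophages were grown from mouse bone marrow over 7 days with CSF-1 as the growth factor and rested for 1 h, and the study measured total RNA on Affymetrix arrays of 12488 probe sets. IL-10-/- cells were given bacterial lipopolysaccharide (LPS, 100 ng/ml) with IL-10 (10 ng/ml), or LPS alone, for 45 or 180 min, and LPS with IL-6 (2 ng/ml) for 45 min. IL-6-/- cells and wild-type cells went through the same 5 treatments. The resting cells (4 arrays) stand as the unstimulated baseline, and the labels give them no genotype and name L-cell conditioned medium, rather than mCSF, as their growth factor source. Each stimulated group had 2 arrays, titled biological replicates, except IL-6-/- with LPS alone, which had 1 at each time. Titles decide which arrays had a cytokine, since the treatment protocols of many IL-10 and IL-6 arrays mention LPS alone, so every cytokine comparison rests on the titles. How many mice stand behind the arrays is not stated, so the p-values below measure the spread between these arrays, which may be technical, and nothing beyond it. All values are MAS5 signals, the linear brightness of a probe set scaled by the authors to a common array mean.

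Cebpa lies on chromosome 7 (chr7:35119293-35121928), Cebpb on chromosome 2 (chr2:167688915-167690432), Cebpd on chromosome 16 (chr16:15887286-15889545) and Ddit3 on chromosome 10 (chr10:127290793-127296291), in the GRCm38.p6 annotation of RefSeq. RefSeq promoter windows, 250 bases before to 50 bases after the annotated start, were at hand for Cebpa, Cebpb and Ddit3. The windows of Cebpa, which was lower after LPS, and of Cebpb, which was higher, are printed first, and that of Saa3, a serum amyloid A gene whose group means followed those of Cebpd most closely, stands after them. Capitals mark letters that match a searched motif, all windows read 5′ to 3′ on the strand of the gene, and the build is GRCm38.p6.
Cebpa, chr7:35119043-35119342, plus strand: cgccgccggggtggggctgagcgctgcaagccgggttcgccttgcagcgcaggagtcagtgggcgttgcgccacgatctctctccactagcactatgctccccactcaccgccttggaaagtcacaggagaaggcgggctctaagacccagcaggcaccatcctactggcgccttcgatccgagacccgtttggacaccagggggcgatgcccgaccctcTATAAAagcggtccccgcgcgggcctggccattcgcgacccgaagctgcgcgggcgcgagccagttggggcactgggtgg
Cebpb, chr2:167688665-167688964, plus strand: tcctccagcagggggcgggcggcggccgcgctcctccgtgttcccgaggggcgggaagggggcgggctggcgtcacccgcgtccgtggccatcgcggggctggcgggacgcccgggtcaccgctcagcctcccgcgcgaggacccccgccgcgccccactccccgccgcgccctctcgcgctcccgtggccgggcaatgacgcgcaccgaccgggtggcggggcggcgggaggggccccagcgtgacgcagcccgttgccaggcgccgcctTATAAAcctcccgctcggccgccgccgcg
Saa3, chr7:46715627-46715926, minus strand: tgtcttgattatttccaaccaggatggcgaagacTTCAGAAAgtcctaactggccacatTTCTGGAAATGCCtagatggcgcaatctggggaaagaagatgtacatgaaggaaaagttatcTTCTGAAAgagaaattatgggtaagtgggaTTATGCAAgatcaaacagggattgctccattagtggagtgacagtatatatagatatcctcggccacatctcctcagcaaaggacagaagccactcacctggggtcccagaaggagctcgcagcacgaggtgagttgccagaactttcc
The Cebpa window held 1 TATA motif (TATAAA), whose first base lay at position -30 from the start. In the Cebpb window the same letters began at position 22 after the start. The Saa3 window held 4 matches to the loose C/EBP motif TTNNGNAA, at -216, -191, -129 and -99, and 1 NF-kappaB motif (GGNNTTTCC, read on the other strand) at -187, which overlaps the match at -191. The next closest genes to Cebpd, Dr1, Mcoln2 and Susd6, were searched as well and are not printed. Dr1 had 1 match to the C/EBP motif, and Mcoln2 and Susd6 had none. Ddit3, whose window is not printed, had 1 AP-1 motif (TGANTCA) at -242. Both strands were searched for these 4 and for TTCNNNGAA (STAT), TGACGTCA (CRE) and TGATGNAA (CARE). Of 32851 RefSeq promoter windows of the same length, 40.7% held the C/EBP motif, 13.6% the TATA motif, 7.81% AP-1, 5.82% NF-kappaB, 8.3% STAT, 1.79% CRE and 3.97% CARE, so a match is a description of letters and not of a bound site.

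The 13 macrophage markers were all on the array, and their summed signal ranged from 194019 to 259648 over the stimulated arrays and from 189549 to 248243 over the resting ones. Markers of other cells differed between stimulated and resting arrays. The 12 stromal markers, all on the array, summed to 9547 to 17125 in stimulated and 1261 to 4009.9 in resting cells, and the 6 lymphocyte markers on the array (of 8) summed to 680.8 to 2209 and to 2255 to 3817. In resting cells most of the lymphocyte sum was Ighm, with a mean of 2162, against 1471 and 457.8 after 45 and 180 min of LPS in wild-type cells. Cd79b was lower there as well (263.5, against 106.4 and 131.8), and Cd79a was higher (178.2, against 261.9 and 322.1). Cd3e, Cd3g and Cd2 had means under 200 in every group. The part of the stromal and lymphocyte markers in the differences from resting cells given below was not tested. Resting replicate 4 stood furthest from its group, with a mean correlation of 0.873 with the other resting arrays against 0.901 to 0.906 for those. Over the wild-type arrays Csf1r gave 22538 to 28075 at 45 min and 15612 to 20385 at 180 min, against 26460.5 to 33289 in resting cells. Its second probe set gave 83.4 to 305.5 and 126.7 to 294.6, against 26.1 to 501.7. Atf4 gave 2683 to 3587 and 2883 to 3811, against 1622 to 2211. The Il10 probe set gave 1512 to 10596 in IL-10-/- cells and the Il6 probe set 427.5 to 8400.2 in IL-6-/- cells, so neither checks its knockout, and the position of these probes relative to the deleted parts is not given in the sources used here.

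**Figure D1:**
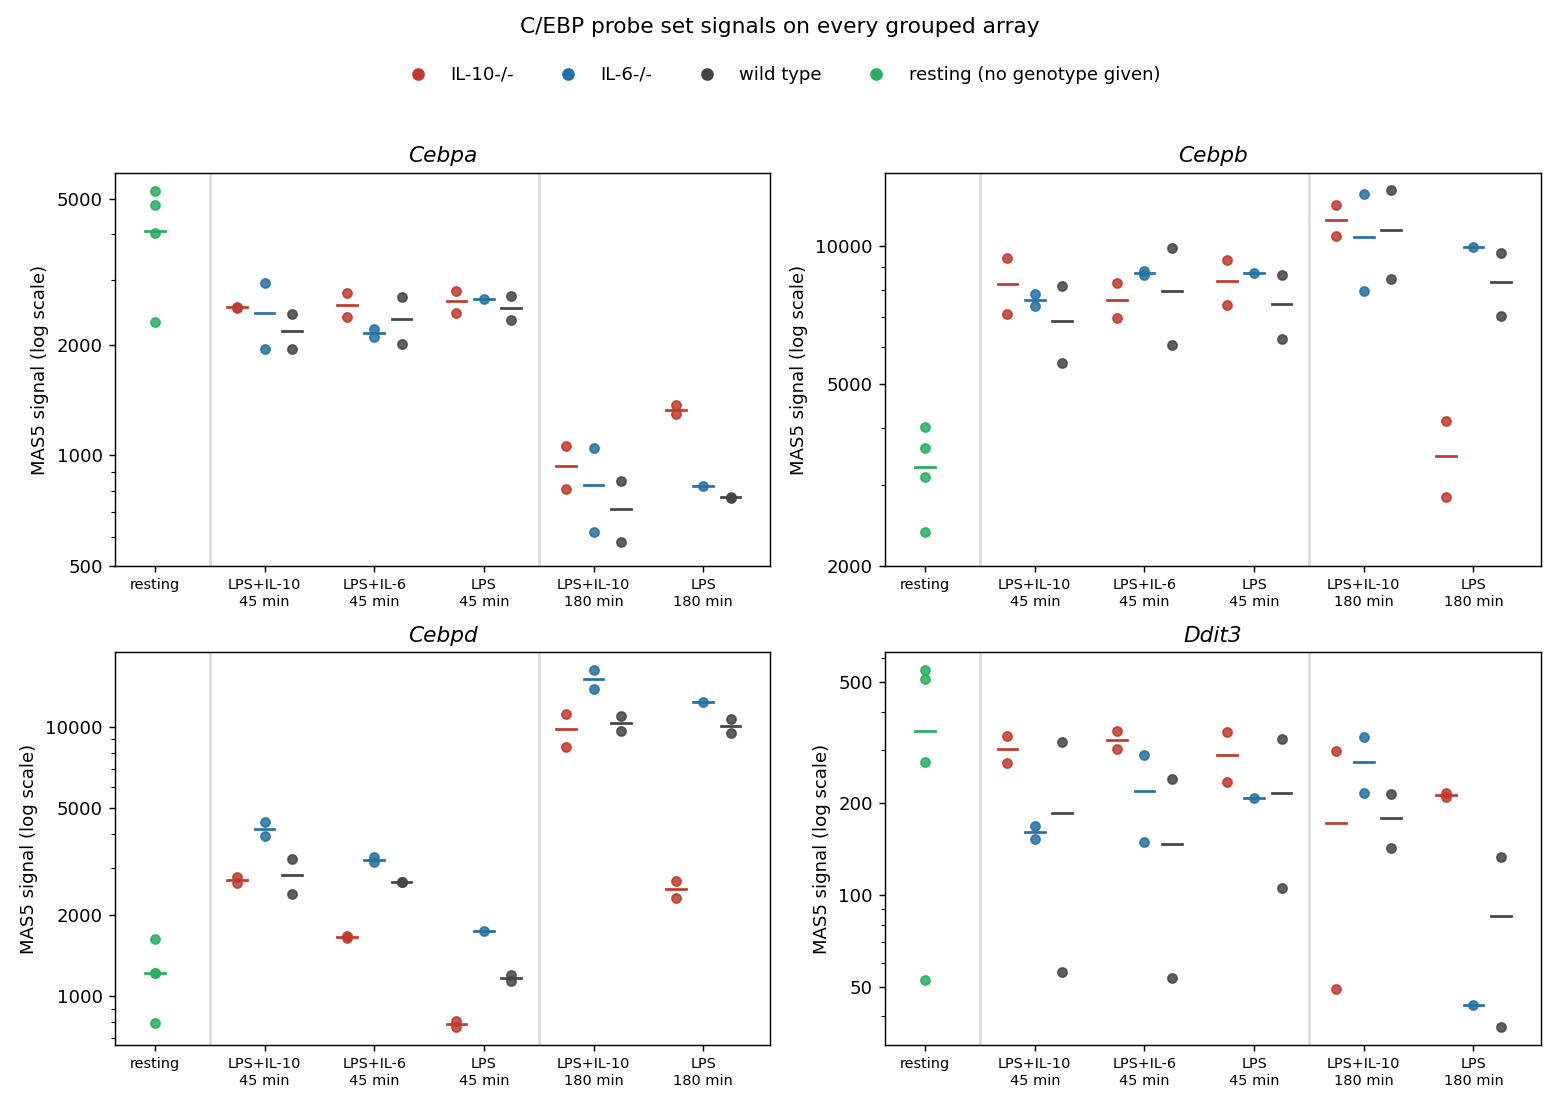
Each point is 1 array, plotted as its MAS5 signal on a log scale for Cebpa, Cebpb, Cebpd and Ddit3, and each bar is a group mean. Treatments run along the horizontal axis and colours give the genotype (IL-10-/- red, IL-6-/- blue, wild type grey, resting green): at 180 min of LPS alone the IL-10-/- arrays of Cebpb (2823 and 4137) and Cebpd (2323 and 2672) lie below the wild-type arrays (7031 and 9624, 9464 and 10719).

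The first question was what LPS alone did to these factors in wild-type cells. The family split: after 180 min Cebpd and Cebpb were higher than in resting cells and Cebpa was lower, and at 45 min only Cebpb passed the test. Cebpd, the acute-phase factor, had signals of 1202.5 and 1140.2 after 45 min and 9464 and 10719 after 180 min of LPS, against 794.5, 1220.0, 1217 and 1628 in resting cells. Both arrays at 45 min lay inside the resting range, and both at 180 min lay far above it. The log2 change was -0.01 ± 0.19 (SE) at 45 min (adjusted p = 0.98) and 3.04 ± 0.19 at 180 min, an 8.24-fold rise (adjusted p = 4.99e-12). Here and below, changes are fitted by limma to log2(signal + 50), a scale that understates changes of low signals, and adjusted p-values are Benjamini-Hochberg values over the 8224 probe sets. In these bulk samples fewer cells of a type and less RNA per cell cannot be told apart.

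Cebpb had signals of 6259 and 8632.5 after 45 min and 7031 and 9624 after 180 min, against 4024, 3613, 2374.5 and 3128 in resting cells. No stimulated array overlapped the resting ones at either time. The changes were 1.18 ± 0.25 at 45 min (adjusted p = 0.00224) and 1.34 ± 0.25 at 180 min (adjusted p = 0.000207), 2.26-fold and 2.53-fold rises. The call at 45 min was lost without wild-type LPS 45 min replicate 2 (0.95, adjusted p = 0.0762). Between the 2 times in wild-type cells Cebpb differed by 0.16 ± 0.29 (adjusted p = 0.798), and the arrays of the 2 times overlapped.

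Cebpa, the differentiation factor, moved the other way. It had signals of 2330 and 2719 after 45 min and 771 and 766.3 after 180 min, against 5245, 4022, 4797 and 2301 in resting cells. At 180 min both arrays lay below every resting array, while at 45 min they lay above resting replicate 4 and below the other resting arrays. The log2 change was -2.27 ± 0.26 at 180 min, to a level 4.84-fold lower (adjusted p = 1.75e-07), and -0.63 ± 0.26 at 45 min (adjusted p = 0.0975). Without resting replicate 4 the value at 45 min was -0.88, with adjusted p = 0.00686. The count of C/EBP genes called was 1 of 4 at 45 min, where 16.7% of all tested probe sets were called, and 3 of 4 at 180 min, where 33.8% were.

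Ddit3, which encodes the stress factor CHOP, had signals of 325.6 and 105.8 after 45 min and 133.7 and 36.9 after 180 min, against 548, 273, 513.8 and 52.8 in resting cells. The groups overlapped at both times. The change was -0.43 ± 0.61 at 45 min (adjusted p = 0.683) and -1.36 ± 0.61 at 180 min (adjusted p = 0.0908), and 1 array decided the second value: it was -1.92 (adjusted p = 0.00772) without resting replicate 4, the lowest resting array, and -0.82 (adjusted p = 0.508) without wild-type LPS 180 min replicate 2.

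Setting 180 min against 45 min of LPS, rather than against resting cells, leaves the growth medium out of the comparison. In wild-type cells Cebpd and Cebpa again moved apart. Cebpb did not change beyond its error (0.16 ± 0.29, adjusted p = 0.798), so its rise in these cells was seen against the resting arrays only. Cebpd rose by 3.05 ± 0.22 (8.29-fold, adjusted p = 3.89e-10) and Cebpa fell by 1.65, with a log2 change of -1.65 ± 0.30 (adjusted p = 0.000305). These 2 of 4 genes were called where 13.9% of all probe sets were. With IL-10 present throughout, averaged over the 3 genotypes, Cebpd rose between the times by 1.84 ± 0.13 (adjusted p = 2.45e-11), Cebpa changed by -1.49 ± 0.17 (adjusted p = 1.8e-07) and Cebpb by 0.51 ± 0.17 (adjusted p = 0.0221), 3 of 4 genes against 32.8% of all probe sets. The Cebpb call in the IL-10 arm was lost without any 1 of 5 of its 12 arrays (adjusted p up to 0.101) and after quantile normalization (0.36, adjusted p = 0.13). The 5 were replicate 2 of each genotype at 180 min and replicate 1 of IL-10-/- and of wild-type cells at 45 min.

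**Figure D2:**
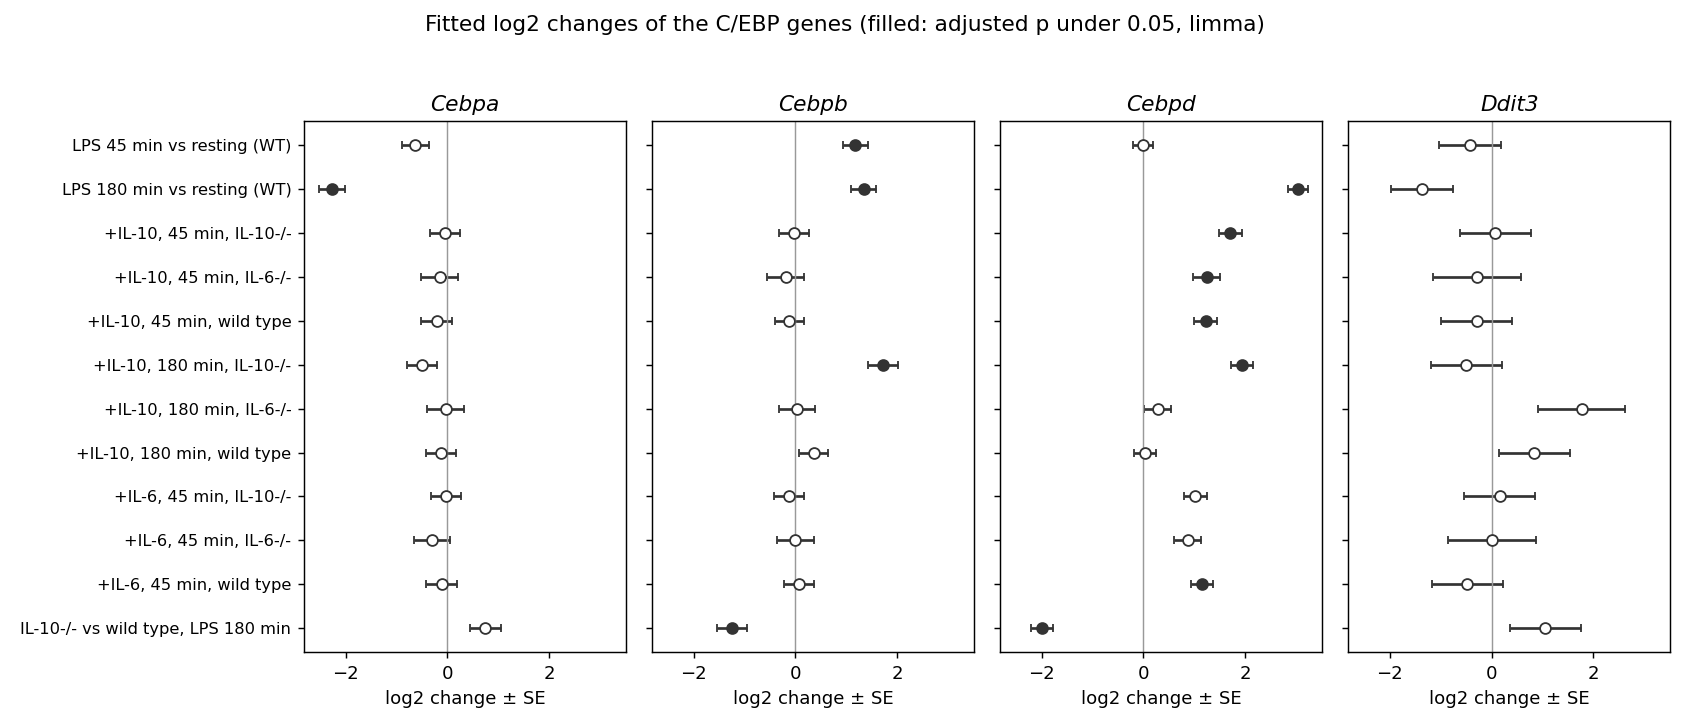
Fitted log2 changes (horizontal axis) with SE bars for 12 comparisons (rows, each named with its upper group first), in 1 panel per gene; filled points passed adjusted p 0.05. Cebpd is called in 7 of the rows, Cebpb in 4, Cebpa in 1 and Ddit3 in 0.

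The next comparison asked what IL-10 added to LPS within 45 min. Cebpd alone of the 4 genes responded, and it did so in every genotype. Its signals in IL-10-/- cells were 2762 and 2641 with IL-10, against 809 and 769.1 with LPS alone. In IL-6-/- cells they were 4427 and 3948 with IL-10, against 1742 on the lone LPS array, and in wild-type cells 2393 and 3243, against 1202.5 and 1140.2. Every array with IL-10 lay above every array with LPS alone, across genotypes. The rise averaged 1.39 ± 0.14 over the 3 genotypes (2.62-fold, adjusted p = 2.16e-07), and was 1.71 ± 0.22 in IL-10-/- cells (adjusted p = 4.56e-05), 1.24 ± 0.27 in IL-6-/- cells (adjusted p = 0.0401) and 1.22 ± 0.22 in wild-type cells (adjusted p = 0.00446).

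In each of these 4 comparisons 1 of 4 C/EBP genes was called. The share of all probe sets called was 1.03% for the mean of the genotypes, 0.547% in IL-10-/- cells, 0.328% in IL-6-/- cells and 0.401% in wild-type cells. The mean and the IL-10-/- call held whichever array was left out. The wild-type call was lost without LPS replicate 1 (adjusted p = 0.0509), LPS replicate 2 (0.0768) or LPS plus IL-10 replicate 2 (1.00, adjusted p = 0.204), and the IL-6-/- call without either of its IL-10 arrays (adjusted p = 0.299 and 0.104). The IL-6-/- call was also lost with no filter (0.0536), after quantile normalization (0.0549) and without the eBayes trend (0.112). Cebpb changed by -0.11 ± 0.18, Cebpa by -0.14 ± 0.18 and Ddit3 by -0.17 ± 0.44 in the mean of the genotypes, each with an adjusted p of 1.

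IL-6, given for 45 min, also raised Cebpd. Its signals with IL-6 were 1673.6 and 1640.1 in IL-10-/- cells, 3283 and 3146 in IL-6-/- cells and 2667 and 2658 in wild-type cells, against the values with LPS alone given above. In each genotype the arrays with IL-6 lay above those without it. The mean change over the genotypes was 1.01 ± 0.14 (2.02-fold, adjusted p = 0.000123), with 1 of 4 C/EBP genes called against 0.547% of all probe sets.

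Within a genotype the IL-6 response of Cebpd was 1.02 ± 0.22 in IL-10-/- cells (adjusted p = 0.118), 0.87 ± 0.27 in IL-6-/- cells (adjusted p = 1) and 1.15 ± 0.22 in wild-type cells (adjusted p = 0.0177). Limma called 0 of the 4 genes in IL-10-/- cells, where 0.0365% of all probe sets were called, and 0 of 4 in IL-6-/- cells, where 0.073% were, with 1 of the 4 at an unadjusted p under 0.05 in each. In wild-type cells 1 of 4 was called against 0.219%, a call lost without any 1 of its 4 arrays (adjusted p from 0.125 to 0.242). The IL-10-/- value had an adjusted p of 0.0301 when resting replicate 4 was left out of the fit, an alternative chosen after seeing the data. Cebpb (-0.02 ± 0.18), Cebpa (-0.15 ± 0.18) and Ddit3 (-0.10 ± 0.44) did not pass in the mean of the genotypes, each with an adjusted p of 1.

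Set against each other at 45 min, IL-10 gave higher Cebpd signals than IL-6 in the mean of each of the 3 genotypes, by 0.38 ± 0.13 (1.30-fold, adjusted p = 0.751). This comparison called 0 of the 4 genes with limma, with 1 at an unadjusted p under 0.05, and 0.219% of all probe sets. The doses of the 2 cytokines differed.

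At 180 min the effect of added IL-10 on these genes was called in IL-10-/- cells. Cebpd had signals of 8443 and 11149 with IL-10 in IL-10-/- cells, against 2323 and 2672 with LPS alone. In IL-6-/- cells the signals were 13824 and 16260.5 with IL-10, against 12382 on the lone LPS array. In wild-type cells they were 9654 and 11014 with IL-10, against 9464 and 10719. The groups did not overlap in IL-10-/- cells and overlapped in wild-type cells. The change was 1.94 ± 0.22 in IL-10-/- cells (3.84-fold, adjusted p = 1.92e-06), 0.28 ± 0.27 in IL-6-/- cells (adjusted p = 0.983) and 0.03 ± 0.22 in wild-type cells (adjusted p = 0.999).

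Cebpb followed the same pattern. With IL-10 it had 10521.5 and 12262.5 in IL-10-/- cells, against 2823 and 4137 with LPS alone. In IL-6-/- cells it had 7960.1 and 12946 with IL-10, against 9956 on the lone LPS array, and in wild-type cells 8466 and 13208, against 7031 and 9624. Only in IL-10-/- cells did the arrays with IL-10 all lie above those without. The change was 1.72 ± 0.29 in IL-10-/- cells (3.29-fold, adjusted p = 0.000453), 0.03 ± 0.36 in IL-6-/- cells (adjusted p = 0.998) and 0.36 ± 0.29 in wild-type cells (adjusted p = 0.999). Both the Cebpd and the Cebpb call in IL-10-/- cells held whichever of the 4 arrays was left out.

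Summed signals of some markers of other cells were higher with added IL-10 at 180 min. The 12 neutrophil and granulocyte markers, all on the array, summed to 3607 to 4161 with IL-10 in IL-10-/- cells, against 2915 to 3013 with LPS alone. In IL-6-/- cells they summed to 5426.5 to 5835.5, against 2728, and in wild-type cells to 3735 to 4424, against 2497.5 to 2948. Among them S100a8, a calcium-binding protein gene that macrophages can also express, averaged 1491 with IL-10 in IL-10-/- cells, against 236.1, while Ly6g averaged 88.5, against 82.3. The others with means over 200 there were lower with IL-10, Csf3r at 1405 against 1585, Elane at 206.8 against 359.9 and Camp at 319.8 against 355.7. With IL-10 Csf3r was higher in IL-6-/- cells (1792, against 1320 on the lone LPS array) and in wild-type cells (2090 against 1395). The stromal markers summed to 15446 to 15850 with IL-10 in IL-10-/- cells, against 13597 to 14438. Their part in the results was not tested.

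Cebpa with IL-10 at 180 min had 807.3 and 1056 in IL-10-/- cells, against 1369.8 and 1292 with LPS alone, without overlap, and the change of -0.50 ± 0.30 did not pass the test (adjusted p = 0.677). Ddit3 had 49.2 and 296.7, against 216 and 209.3, a change of -0.50 ± 0.70 (adjusted p = 0.999) that became 0.40 without LPS plus IL-10 replicate 1. So 2 of 4 genes were called in IL-10-/- cells, where 3.54% of all probe sets were called. Limma called 0 of 4 in IL-6-/- cells (0.207% of all probe sets) and 0 of 4 in wild-type cells (0.134%), with 0 of the 4 at an unadjusted p under 0.05 in either.

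Averaged over the 3 genotypes, added IL-10 at 180 min changed Cebpd by 0.75 ± 0.14 (adjusted p = 0.00099) and Cebpb by 0.70 ± 0.18 (adjusted p = 0.0261), 2 of 4 genes against 3.82% of all probe sets. These means rest largely on IL-10-/- cells, as the values by genotype show. The Cebpb mean lost its call without any 1 of 5 of the 10 arrays (adjusted p from 0.0807 to 0.113), namely wild-type LPS replicate 1, IL-10-/- LPS replicate 1, or replicate 2 of LPS plus IL-10 in any of the 3 genotypes.

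Whether the responses differ between genotypes was tested directly. The IL-10 response of Cebpd at 180 min was larger in IL-10-/- than in wild-type cells by 1.91 ± 0.31 on the log2 scale (adjusted p = 0.00135), and this held whichever of the 8 arrays was left out. For Cebpb the difference was 1.36 ± 0.42 with an adjusted p of 0.234. This test called 1 of 4 C/EBP genes and 0.559% of all probe sets.

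The IL-10 response was also compared between the times within a genotype. In IL-10-/- cells the response of Cebpb was larger at 180 than at 45 min by 1.74 ± 0.42 (adjusted p = 0.0343), and that of Cebpd by 0.23 ± 0.31 (adjusted p = 0.998). There 1 of 4 genes and 1.14% of all probe sets were called, and the Cebpb call was lost without any 1 of 7 of the 8 arrays (adjusted p from 0.0522 to 0.228). It was kept without IL-10-/- LPS 180 min replicate 2, and lost with no filter (0.0557), after quantile normalization (0.0677) and without the eBayes trend (0.0823). In wild-type cells the response of Cebpd was smaller at 180 min by 1.18, as a difference of -1.18 ± 0.31 (adjusted p = 0.225). Limma called 0 of 4 genes there, with 1 at an unadjusted p under 0.05, and 0.146% of all probe sets.

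Without added cytokine, the genotypes could be compared under LPS alone. After 180 min Cebpd and Cebpb were lower in IL-10-/- than in wild-type cells. Cebpd had 2323 and 2672 in IL-10-/- cells, against 9464 and 10719 in wild-type cells, a change of -1.99 ± 0.22 to a level 3.98-fold lower (adjusted p = 1.78e-06) that held whichever array was left out. Cebpb had 2823 and 4137, against 7031 and 9624, a change of -1.25 ± 0.29 to a level 2.39-fold lower (adjusted p = 0.0138). In neither gene did the 2 genotypes overlap.

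The Cebpb call was lost without IL-10-/- LPS 180 min replicate 1 (-0.98, adjusted p = 0.272) or wild-type LPS 180 min replicate 2 (-1.03, adjusted p = 0.234). Cebpa pointed the other way, with 1369.8 and 1292 in IL-10-/- cells, against 771 and 766.3 in wild-type cells, and its difference of 0.75 ± 0.30 did not pass (adjusted p = 0.246). Ddit3 had 216 and 209.3, against 133.7 and 36.9, also without overlap (1.06 ± 0.70, adjusted p = 0.642). In all, 2 of 4 genes were called against 2.87% of all probe sets. The stromal markers summed to 13597 and 14438 on these IL-10-/- arrays, against 11796 and 12239.5 on the wild-type arrays. The lymphocyte markers summed to 695.6 to 738.6, against 949.9 to 1062. The macrophage markers summed to 212603 to 228311, against 194019 to 202127, without overlap. The part of all these markers in the difference was not tested.

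Once IL-10 was supplied, the same genotypes overlapped. With LPS plus IL-10 at 180 min Cebpd differed between IL-10-/- and wild-type cells by -0.09 ± 0.22 and Cebpb by 0.10 ± 0.29, each with an adjusted p of 0.998. Limma called 0 of 4 genes, none of them at an unadjusted p under 0.05, and 0.219% of all probe sets. At 45 min of LPS alone Cebpd had 809 and 769.1 in IL-10-/- cells, against 1202.5 and 1140.2 in wild-type cells. These did not overlap, and the change of -0.54 ± 0.22 did not pass (adjusted p = 0.494), with 0 of 4 genes called by limma, 1 at an unadjusted p under 0.05, and 0.377% of all probe sets called. Over the 3 treatments at 45 min the mean difference of Cebpd was -0.42 ± 0.13 (adjusted p = 0.126), lower in IL-10-/- cells in each treatment, with 0 of 4 called, 1 at an unadjusted p under 0.05, and 1.29% of all probe sets called.

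Under LPS alone the change between the times was also measured in IL-10-/- cells. Cebpd rose between 45 and 180 min by 1.60 ± 0.22 (adjusted p = 9.43e-06), Cebpb fell by 1.27 as a change of -1.27 ± 0.29 (adjusted p = 0.00323), and Cebpa changed by -0.95 ± 0.30 (adjusted p = 0.0276), 3 of 4 genes against 17.1% of all probe sets. Cebpb had 2823 and 4137 at 180 min in these cells, against 7412 and 9326 at 45 min, back within the range of the resting arrays on 1 array and just above it on the other. The Cebpa call was lost without any 1 of its 4 arrays (adjusted p from 0.0712 to 0.168), and the Cebpb call without IL-10-/- LPS 45 min replicate 2 (adjusted p = 0.0565) or LPS 180 min replicate 1 (adjusted p = 0.0799).

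Tested as a difference, the change of Cebpd between the times was smaller in IL-10-/- than in wild-type cells by 1.45, as a difference of -1.45 ± 0.31 (adjusted p = 0.0176). That of Cebpb differed by -1.43 ± 0.42 (adjusted p = 0.129). Here 1 of 4 genes and 1.12% of all probe sets were called. The Cebpd call was lost without any 1 of 6 of the 8 arrays (adjusted p from 0.0561 to 0.106), and was kept without wild-type LPS 180 min replicate 1 or IL-10-/- LPS 180 min replicate 2.

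Loss of IL-6 was not followed by a called change in these genes. Cebpd had the highest signals of the study in IL-6-/- cells, with 13824 and 16260.5 under LPS plus IL-10 at 180 min, against 9654 and 11014 in wild-type cells, a difference of 0.54 ± 0.22 (adjusted p = 0.509). With limma 0 of 4 genes were called there, 1 at an unadjusted p under 0.05, and 0.182% of all probe sets. Under LPS alone at 180 min the lone IL-6-/- array had 12382, a difference of 0.30 ± 0.27 from wild-type cells (adjusted p = 0.913), with 0 of 4 called by limma, 0 at an unadjusted p under 0.05, and again 0.182% of all probe sets. The mean over the 3 treatments at 45 min was 0.47 ± 0.14 higher in IL-6-/- cells (adjusted p = 0.0756), higher in each treatment, with 0 of 4 called by limma, 1 at an unadjusted p under 0.05, and 2.25% of all probe sets. That mean had an adjusted p of 0.0317 when resting replicate 4 was left out of the fit, the alternative chosen after seeing the data.

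Across all 31 comparisons Cebpd was called in 15, Cebpb in 8, Cebpa in 4 and Ddit3 in 0, the last with 1 comparison at an unadjusted p under 0.05. Many of these comparisons share arrays. How often other probe sets were called over the same 31 was not counted, and a single comparison called up to 33.8% of all probe sets. Ddit3 ranged from 36.9 to 548 over the grouped arrays. In the 13 groups of 2 arrays its replicates differed by up to 6.03-fold, against up to 1.70-fold for Cebpa, 1.63-fold for Cebpb and 1.36-fold for Cebpd, and all 4 genes spread wider over the 4 resting arrays, from 52.8 to 548 for Ddit3. Its standard errors, 0.41 or more in every comparison, limit what could be detected.

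Ordered by group mean, 8 of the 15 steps between neighbouring groups of Cebpd showed no overlap of arrays. These 8 include the steps on both sides of each lone IL-6-/- LPS array, which has no spread to overlap with. Such steps are also among those counted as apart for the other genes below, and the share for other probe sets was not computed. The highest 5 groups for Cebpd were IL-6-/- with LPS plus IL-10 and with LPS, wild type with LPS plus IL-10 and with LPS, and IL-10-/- with LPS plus IL-10, all at 180 min. IL-10-/- with LPS at 180 min (mean 2498) stood between wild type with IL-6 at 45 min (2663) and the lone IL-6-/- LPS array at 45 min (1742), and overlapped only the first of these neighbours. Resting cells (1215 ± 340.3, SD, n = 4) overlapped wild type with LPS at 45 min, and IL-10-/- with LPS at 45 min (789 ± 28.1, SD, n = 2) was lowest. For Cebpb 2 of 15 neighbouring pairs were apart, the larger step being that between wild type with LPS plus IL-10 at 45 min (6862 ± 1847, SD, n = 2) and IL-10-/- with LPS at 180 min (3480.0 ± 928.7, SD, n = 2), which overlapped resting cells (3285 ± 708.7, SD, n = 4).

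Cebpa had 3 of 15 neighbouring pairs apart. Its resting level came first and the 9 groups at 45 min followed without a break between neighbours (1946 to 2943 over their 17 arrays). A gap then separated them from the 180 min groups (579.1 to 1370 over 11 arrays), led by IL-10-/- with LPS. For Ddit3 1 of 15 neighbouring pairs was apart, and the order carries little. Over the 16 group means, Cebpa and Cebpd ran opposite to each other (Pearson r = -0.90, and -0.89 over the 15 stimulated groups), while Cebpb and Cebpd had r = 0.53. These are descriptions of 16 points that share times, treatments and arrays.

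The genes most like each factor were taken as the 4 with the highest correlation of group means over the 16 groups, among tested genes whose group means spanned at least 1 on the log2 scale. For Cebpd they were Saa3 (r = 0.965), Dr1 (0.956), Mcoln2 (0.948) and Susd6 (0.942). Saa3, an acute-phase gene of macrophages whose promoter window is printed above, had 12007 and 12346.5 in IL-10-/- cells with LPS at 180 min, against 48639.5 and 58170.1 in wild-type cells. With IL-10 added to the IL-10-/- cells it had 66384 and 57391, and at 45 min 3145 and 3428, against 308.2 and 310.8 with LPS alone. For Cebpb the closest were Bcl3 (0.876), a nuclear partner of NF-kappaB, Bcl6 (0.837), a transcriptional repressor, Ifngr2 (0.834), a chain of the interferon gamma receptor, and Ist1 (0.831). Bcl3 had 659.4 and 678 in IL-10-/- cells with LPS at 180 min, against 2832 and 4289 in wild-type cells.

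For Cebpa they were C3ar1 (0.981), the C3a receptor gene, Rgs2 (0.972), a regulator of G-protein signalling, Apobec1 (0.972), a cytidine deaminase, and St6gal1 (0.965), a sialyltransferase. The mean signal of C3ar1 was 1265 after 180 min of LPS in wild-type cells and 13095 in resting cells. For Ddit3 the highest were Atp8a1 (0.803), Cpq (0.775), Mcm4 (0.771) and Gdf3 (0.755). All of these correlations rest on the same 16 groups and the same arrays, and no p is given for them.

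**Figure D3:**
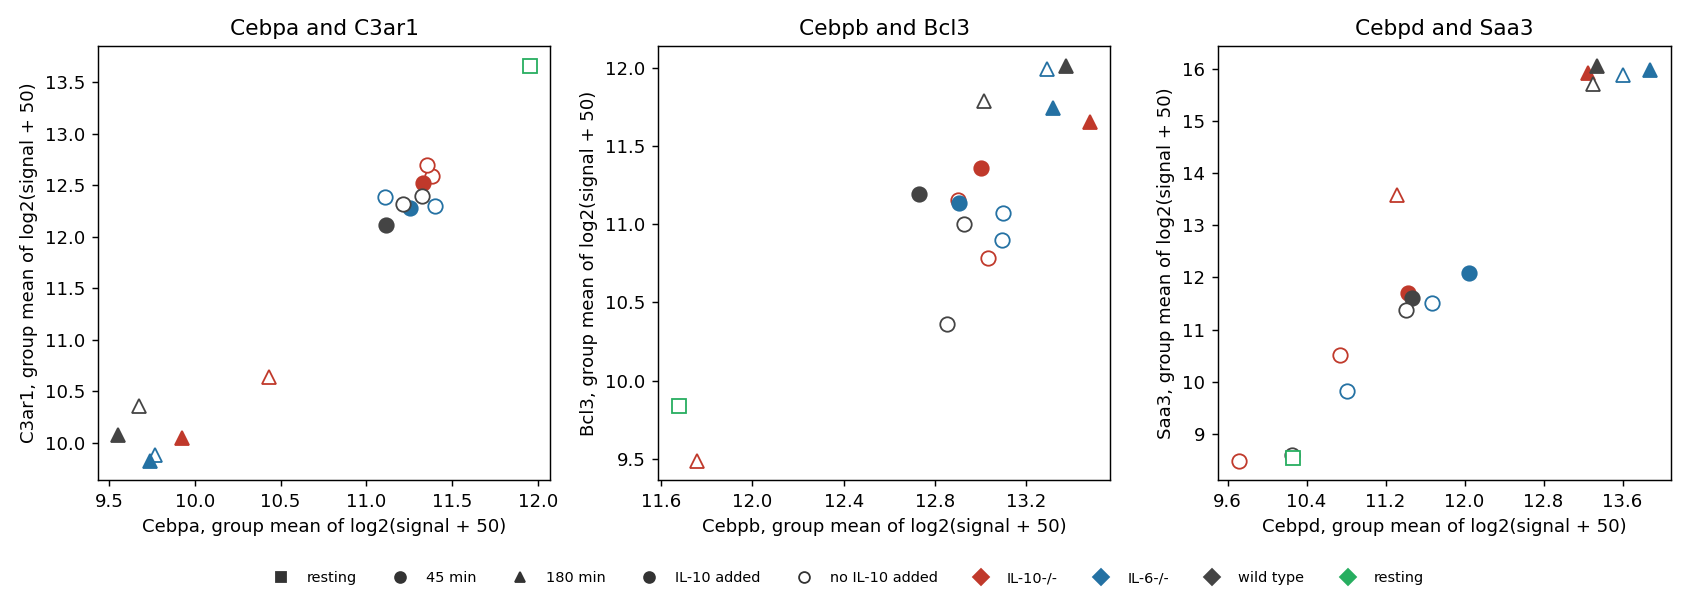
Group means of log2(signal + 50) for Cebpa against C3ar1, Cebpb against Bcl3 and Cebpd against Saa3, with 1 point for each of the 16 groups; shape gives the time, colour the genotype, and filled points had IL-10 added. In the Cebpb and Cebpd panels the open red triangle, IL-10-/- cells with LPS alone at 180 min, lies away from the other 180 min groups and toward lower values (r = 0.981, 0.876 and 0.965 over the 16 groups).

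Genes around the factors were then counted by list, with the lists chosen when earlier results of these data were known. Of the other genes with a Cebp symbol, Cebpe, Cebpg and Cebpz, 1 was on the array and tested, Cebpg. Its mean signals in wild-type cells were 209.6 after 45 min and 158 after 180 min of LPS, against 175.2 in resting cells. Its log2 changes of 0.28 ± 0.29 and -0.04 ± 0.29 did not pass (adjusted p = 0.559 and 0.931). Cebpg was called in none of the 6 comparisons in which the lists were counted. In these the share of all probe sets called was 16.7% and 33.8% for LPS at 45 and 180 min, 1.03% and 0.547% for IL-10 and IL-6 added at 45 min, 3.54% for IL-10 added at 180 min in IL-10-/- cells and 2.87% for IL-10-/- against wild type under LPS at 180 min.

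Of the bZIP factors that can pair with C/EBP proteins, 15 of 17 were tested. After 45 min of LPS 6 rose and 0 fell, 40% of the list against 16.7% of all probe sets, with a list median of 0.74 against 0.03. After 180 min 7 rose and 3 fell, 66.7% against 33.8% (median 0.27 against -0.09). Fos, a partner in AP-1, rose 20.8-fold at 45 min (mean 22738 against 1112 in resting cells, adjusted p = 1.01e-13) and at 180 min had a mean of 353.2, a change of -1.46 ± 0.22 (adjusted p = 9.15e-06). Batf rose at 180 min (mean 979.5 against 153.8, adjusted p = 3.02e-05). With added IL-10 at 45 min, Nfil3, a bZIP repressor, rose 4.72-fold (adjusted p = 2.74e-09) and Batf rose to a mean of 317.7, against 54.1 (adjusted p = 0.000988), while Nfe2l2, which encodes NRF2, changed by -0.57 ± 0.12 (adjusted p = 0.0114). A second Nfil3 probe set gave 1.31 on the log2 scale, also called (adjusted p = 0.000118).

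With added IL-6 at 45 min Nfil3 alone of that list was called (4.32-fold higher, adjusted p = 1.39e-08). At 180 min in IL-10-/- cells added IL-10 raised Batf (1165 against 81.8, adjusted p = 5.33e-05), Fos (690.0 against 172.6, adjusted p = 5.11e-05) and Nfil3 (2.25-fold, adjusted p = 0.01). Against wild type under LPS at 180 min, Batf (81.8 against 979.5, adjusted p = 0.00022) and Nfil3 (204.6 against 573.1, adjusted p = 0.00571) were lower in IL-10-/- cells and 0 of the 15 were higher. The second Nfil3 probe set gave 0.31 and -0.50 in these last 2 comparisons and was not called (adjusted p = 0.951 and 0.609). Without replicate 1 of either IL-10-/- or wild-type LPS 180 min the count of bZIP genes called in the genotype comparison was 1 in place of 2.

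Genes whose products act on C/EBP genes, messages or proteins numbered 25, of which 16 were tested. After 45 min of LPS 6 rose and 0 fell, 37.5% of the list against 16.7% of all probe sets (median 0.48 against 0.03). Among them were Myc, with a mean of 458.4 against 12.5 in resting cells (adjusted p = 5e-09), and Id2, an inhibitor of basic helix-loop-helix factors, 6.11-fold higher (adjusted p = 6.43e-07). After 180 min 6 rose and 1 fell, 43.8% against 33.8% (median 0.71 against -0.09), with Hif1a 4.21-fold higher (adjusted p = 9.47e-11) and Mapk14, the p38 alpha kinase and the 1 gene that fell, at -1.18 ± 0.16 (adjusted p = 3.79e-06). At 45 min Socs3, the feedback inhibitor of STAT3 signalling, was the 1 gene called with added IL-10 (2.36-fold, adjusted p = 3.67e-05) and with added IL-6 (1.85-fold, adjusted p = 0.00752). Its second probe set rose as well, by 1.18 and 0.87 on the log2 scale.

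In IL-10-/- cells at 180 min added IL-10 raised Id2 (3.88-fold, adjusted p = 0.000585) and Stat3 (2.88-fold, adjusted p = 1.94e-06) and lowered Mapk14 (-1.25 ± 0.19, adjusted p = 9.26e-05). Against wild type under LPS at 180 min, Id2 (3210 against 9604, adjusted p = 0.00841) and Stat3 (1659 against 3509, adjusted p = 0.000436) were lower in IL-10-/- cells, and 0 of 16 were higher. A second Stat3 probe set gave 1.98 and -1.56 in these 2 comparisons, both called. Socs3 was called in the genotype comparison by its second probe set (-1.04, adjusted p = 0.0192) and is not in the count, which uses the probe set with the higher mean. Without either IL-10-/- LPS 180 min array, or without wild-type LPS 180 min replicate 2, the genotype count was 1 in place of 2.

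Inflammatory and acute-phase genes with known C/EBP sites or a known need for C/EBP beta or delta numbered 30, of which 26 were tested. After 45 min of LPS 11 rose and 2 fell, 50% of the list against 16.7% of all probe sets (median 0.70 against 0.03). After 180 min 23 rose and 0 fell, 88.5% against 33.8% (median 3.99 against -0.09). Since this list of inflammatory genes was chosen with earlier results known, its excess after LPS is a description and not a test of C/EBP action. Ptgs2, which encodes cyclooxygenase-2, had a mean of 9837 at 180 min, against 13.4 in resting cells (adjusted p = 2.19e-19). Saa3 had 53404.8, against 553.4 (adjusted p = 3.18e-10). No fold is given for means under the filter level of 200, where the added 50 would set it. At 45 min Saa3, like Cebpd, was not changed by LPS beyond its error (0.04 ± 0.56, adjusted p = 0.969). With added IL-10 at 45 min 4 rose and 3 fell (median 0.08 against -0.01): Saa3 rose 7.12-fold (adjusted p = 7.12e-05) and Il1rn, the interleukin-1 receptor antagonist, 3.97-fold (adjusted p = 6.14e-12), and with added IL-6 4 rose and 0 fell (median 0.02 against -0.02), Saa3 by 4.49-fold (adjusted p = 0.00644).

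In IL-10-/- cells at 180 min added IL-10 raised 8 and lowered 6 of these 26 genes (median -0.02 against -0.03). Il1rn rose 11.1-fold (34529 against 3065, adjusted p = 6.38e-13) and Chil1, a chitinase-like gene, 14.2-fold (adjusted p = 5.71e-08), while Csf2, the GM-CSF gene, had a mean of 79.8 with IL-10, against 6694 with LPS alone (adjusted p = 1.03e-09). Il4ra rose 16.5-fold (18968 against 1104, adjusted p = 2.62e-13), and its second probe set gave 0.13 and was not called (adjusted p = 1). Against wild type under LPS at 180 min 5 were higher in IL-10-/- cells and 6 lower (median 0.15 against 0.04), with Csf2 at 6694 against 96.6 (adjusted p = 2.44e-09) and Cp, ceruloplasmin, at 271.9 against 2309 (adjusted p = 2.3e-05). Without wild-type LPS 180 min replicate 2 this count was 6 in place of 11, and without any other 1 of the 4 arrays it was 7. Saa3 was at -2.12 ± 0.64 in the genotype comparison, with an adjusted p of 0.0842.

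**Figure D4:**
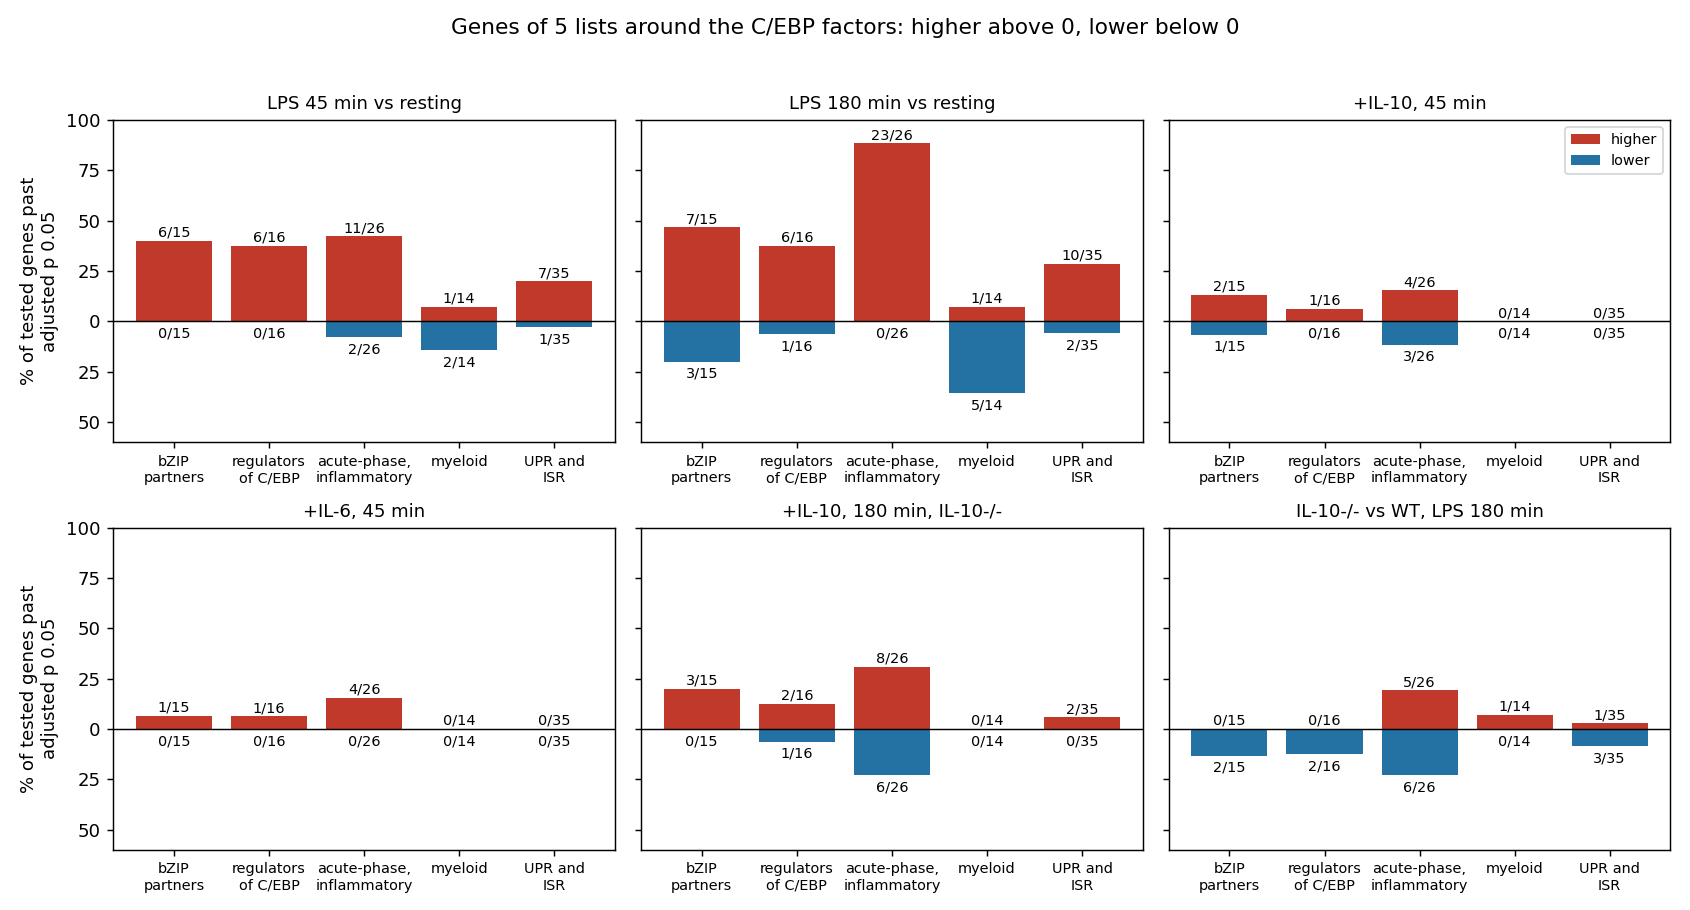
Bars give the percentage of tested genes of each list that passed adjusted p 0.05, higher genes above 0 and lower genes below it, in 6 comparisons, with the counts printed at the bars (UPR and ISR: unfolded protein and integrated stress response). The inflammatory targets reach 23 of 26 higher after 180 min of LPS, where 33.8% of all probe sets were called. The myeloid and stress lists show 0 called with IL-10 or IL-6 added at 45 min, where 1.03% and 0.547% of all probe sets were.

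Myeloid genes with known C/EBP alpha or epsilon sites numbered 18, of which 14 were tested. After 45 min of LPS 1 rose and 2 fell, 21.4% of the list against 16.7% of all probe sets (median -0.22 against 0.03), and after 180 min 1 rose and 5 fell, 42.9% against 33.8% (median -0.64 against -0.09). Both shares lie near those of all probe sets. Klf4, a Kruppel-like factor of monocytes, was 2.45-fold higher at 45 min (adjusted p = 0.000246) and at 180 min had a mean of 145.5, against 416.5 in resting cells (-1.24 ± 0.22, adjusted p = 0.000117). Mmp8, a granulocyte collagenase, changed by -1.63 ± 0.42 (adjusted p = 0.00355) and Mpo, myeloperoxidase, by -1.05 ± 0.40 (adjusted p = 0.0469) at 180 min, with mean signals of 32.3 and 64.8, against 226.2 and 195.4 in resting cells. Another Mpo probe set, which did not pass the filter and was not tested, did not fall, with a mean of 114.4 at 180 min, against 86.9 in resting cells. The count at 180 min was 3 in place of 6 with the filter at a signal of 500, and also without either wild-type array or resting replicate 1. At 45 min it was 1 in place of 3 without wild-type LPS 45 min replicate 2. Limma called 0 of 14 with IL-10 or IL-6 added at 45 min (0 at an unadjusted p under 0.05 in each) and with IL-10 added at 180 min in IL-10-/- cells (3 at that level), and 1 against wild type under LPS at 180 min, Gfi1, a repressor of myeloid genes (428.3 in IL-10-/- cells against 115 in wild-type cells, adjusted p = 0.0378). That call was lost without any 1 of the 4 arrays.

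The last list held 42 genes of the unfolded protein and integrated stress responses, which induce CHOP, and 35 were tested. After 45 min of LPS 7 rose and 1 fell, 22.9% of the list against 16.7% of all probe sets (median 0.32 against 0.03), and after 180 min 10 rose and 2 fell, 34.3% against 33.8% (median 0.17 against -0.09). The shares lie near those of all probe sets, and Ddit3 itself did not pass at either time. Ppp1r15a, the phosphatase subunit that reverses eIF2 alpha phosphorylation, rose 6.36-fold at 45 min (adjusted p = 5.56e-10), and Ddit4, a stress-induced inhibitor of mTORC1, had a mean of 2542 at 180 min, against 132.4 in resting cells (adjusted p = 1.5e-09). Without wild-type LPS 45 min replicate 2 the count at 45 min was 4 in place of 8. Limma called 0 of 35 with IL-10 added at 45 min, 4 at an unadjusted p under 0.05, and 0 of 35 with IL-6 added, 3 at that level.

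Added IL-10 at 180 min in IL-10-/- cells raised 2 of the 35 stress genes, Ddit4 (5.49-fold, adjusted p = 0.0002) and Sars, a seryl-tRNA synthetase gene (256.9 against 65.2, adjusted p = 0.00275). Against wild type under LPS at 180 min, 3 were lower in IL-10-/- cells (Ddit4, Sars and the BCL2-family gene Bcl2l11) and Ppp1r15a was higher (1.85-fold, adjusted p = 0.0378). The other 2 Bcl2l11 probe sets gave -0.49 and -0.69 there and were not called. Without IL-10-/- LPS 180 min replicate 1 or wild-type LPS 180 min replicate 2 this last count was 0 in place of 4, without the other replicate of either it was 1, and without IL-10-/- LPS plus IL-10 180 min replicate 2 the count with added IL-10 was 1 in place of 2.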

How the data were processed

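Total RNA was measured on 34 arrays. The deposited values are intensity values, MAS5 signals made and scaled by the authors, per the submitters' processing notes, and the MAS5 version is not given in the sources used here. The 2% trimmed mean was 500.29 to 500.4 on every array. Of 12488 probe sets, 66 controls were left out.

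With R 4.3.3 and limma 3.58.1, log2(signal + 50) of the 8224 probe sets with a signal of 200 or more on at least 2 of 32 grouped arrays was fitted to 16 group means (lmFit and eBayes with trend, 16 residual and 7.575 prior degrees of freedom). From this 31 comparisons were drawn, each adjusted by Benjamini-Hochberg over all 8224, with calls at 0.05. Groups with 1 array were assumed to vary like the others. The fit recovered known changes in data simulated for a test. Number of arrays limits the precision. Another 2 arrays, whose labels do not settle the group, entered no comparison.

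The C/EBP genes are named in every comparison, with up to 4 called genes per list by absolute log2 change, the 4 genes most alike, and Csf1r, Il10, Il6, Stat3, Socs3 and Atf4 as values to set beside them. Other genes named were the only ones of their count, or were chosen after their values were seen, as were the examples picked from those 4. A list gene with several probe sets is counted by that with the highest mean among those that passed the filter. The members and lists were chosen with earlier results of these data known. The same values were recomputed with a pseudocount of 10 or 200, with the filter on low signals removed or raised to 500, after quantile normalization, with eBayes run without its trend, with a replicate block, and with genotype means that leave IL-6-/- cells out. Each grouped array with a partner was also left out in turn, in 30 fits. A fit of the other groups without resting replicate 4 was added after seeing the data.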

Additional observations from a re-analysis of the deposited data

Results flagged for a closer look

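In 3 results the response itself differed between genotypes or times by a test of the difference. The IL-10 response of Cebpd at 180 min was larger in IL-10-/- than in wild-type cells by 1.91 on the log2 scale (limma, adjusted p = 0.00135). The change of Cebpd between 45 and 180 min of LPS alone was smaller in IL-10-/- than in wild-type cells, with a difference of -1.45 (adjusted p = 0.0176). The IL-10 response of Cebpb in IL-10-/- cells was larger at 180 than at 45 min by 1.74 (adjusted p = 0.0343). That call was lost without any 1 of 7 of its 8 arrays (adjusted p from 0.0522 to 0.228), with no filter, after quantile normalization and without the eBayes trend, and the call on -1.45 was lost without any 1 of 6 of its 8 arrays. All 3 use the IL-10-/- LPS 180 min arrays, so they are not independent of one another.

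On the 2 arrays outside the comparisons, 3 signals lay above every resting array. Cebpb had 7872.8 on the LPS 45 min array whose title gives no genotype, and 7353.3 on the IL-6-/- LPS array whose title and protocol disagree on the time, against at most 4024 in resting cells. Cebpd had 12940.9 on the IL-6-/- array, against at most 1628 in resting cells. These are single arrays with no test.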

How the results depend on the processing

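Of 1740 values of the 4 genes under alternative settings, 1665 kept their side of the threshold and were counted as unchanged. Each of these kept its direction, rounded to 0, or was an uncalled value within 1 SE of the reported one. Of the called values 0 changed sign. The 27 called results kept their direction in all 393 alternatives and their call in 342, and 16 kept the call in every one. Replicate numbers are shared across groups. Deviations of same-numbered arrays were positively correlated in all 23 same-genotype pairs of groups (r from 0.02 to 0.441) and in 77 of 78 pairs in all, so arrays deviated more like their own number, and replicate 2 was the higher one in 11 of 13 groups for Cebpa and for Cebpb. This is a hint from the data of a shared effect; it was over 0.1 in 13 of the 23 pairs and not in every one, and no label says what a number marks, so the block stands as an alternative. With a replicate block Cebpa was at -0.86 (adjusted p = 0.0043) for LPS at 45 min and 0.75 (0.0267) for IL-10-/- against wild type at 180 min of LPS, Cebpb at 1.36 (0.00814) for the genotype difference of the IL-10 response, Cebpd at 0.24 (0.337) for LPS at 45 min and Ddit3 at -1.80 (0.0252) for LPS at 180 min. The block also took past the threshold Cebpb at -1.43 (0.00351) for the genotype difference of the LPS change between the times, and Cebpd at 1.02 (0.00504) for IL-6 in IL-10-/- cells, -0.42 (0.014) for IL-10-/- and 0.44 (0.0117) for IL-6-/- against wild type at 45 min and -1.18 (0.0134) for the late minus early IL-10 response in wild-type cells; resting replicates 3 and 4 have no partner there. Without trend in eBayes, Cebpb with IL-10 at 180 min, over the genotypes, was at 0.70 with adjusted p = 0.0603. Leaving out 1 array gave, for LPS at 45 min, -0.88 to -0.49 for Cebpa, 0.95 to 1.41 for Cebpb and -1.06 to 0.21 for Ddit3, and for LPS at 180 min -1.92 to -0.82 for Ddit3. It gave 0.59 to 0.82 for Cebpb with IL-10 at 180 min, -1.53 to -0.98 for Cebpb in IL-10-/- against wild-type cells, and -1.40 to 0.40 for Ddit3 with IL-10 in IL-10-/- cells. The cause was not tested. Over all probe sets, called counts ranged from 693 to 1639 (reported 1377) for LPS at 45 min, 67 to 138 (85) for IL-10 and 26 to 70 (45) for IL-6 at 45 min, 239 to 509 (314) for IL-10 at 180 min, 176 to 449 (291) in IL-10-/- cells alone, 3 to 59 (11) in wild-type cells alone, 105 to 459 (236) for IL-10-/- against wild type at 180 min and 28 to 115 (46) for the genotype difference, highest each time with the replicate block. The other counts also moved by over 1.5 times in at least 1 setting, except those for LPS at 180 min and the 2 times with IL-10. Between the times the counts were 728 to 1680 (1143) in wild-type and 796 to 2007 (1405) in IL-10-/- cells, and 41 to 231 (92) for their difference. For IL-10-/- and IL-6-/- against wild type at 45 min they were 69 to 303 (106) and 108 to 532 (185). Between the IL-10 responses of the 2 times they were 48 to 188 (94) in IL-10-/- and 6 to 49 (12) in wild-type cells. The rest were 0 to 119, reported at 0 to 45. With that block 16 of 26 inflammatory genes were called in the genotype comparison and 11 of 35 stress genes at 45 min of LPS. Groups of 1 or 2 arrays, and the low signal of Ddit3, limit what could be detected.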

Other observations

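On the LPS 45 min array without a genotype, Cebpa had a signal of 2651.7, Cebpd 1608.3 and Ddit3 223.4. On the IL-6-/- LPS array labelled 45 min in its title and 180 min in its protocol, Cebpa had 772.9 and Ddit3 71.2. Over the grouped arrays Cebpa ranged from 1946 to 2943 at 45 min and from 579.1 to 1370 at 180 min.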
